A study of Mus musculus with 42 samples.

Results

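The thick ascending limb and the distal convoluted tubule are neighbouring segments of the nephron, and 10 genes that mark them were followed through kidneys that had lost Tsc2, Tfeb or both. The genes were chosen by name, with earlier results of these data known, and are 10 of the 54532 genes listed there. Umod (uromodulin), Slc12a1 (the NKCC2 cotransporter), Kcnj1 (the ROMK potassium channel) and Cldn16 (claudin-16) belong to the thick limb. Egf (the epidermal growth factor precursor), Slc12a3 (the NCC cotransporter), Trpm6 (a magnesium channel), Pvalb (parvalbumin, a calcium-binding protein) and Wnk4 (a kinase that controls NCC) belong mainly to the distal convoluted tubule. Cdh16 (kidney-specific cadherin) is made along most of the tubule, and its promoter drives the KspCre transgene used to delete genes in part of these mice.

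The thick limb takes up sodium, potassium and chloride through NKCC2, returns potassium to the lumen through ROMK, and thereby sets up the voltage that moves magnesium and calcium through junctions containing claudin-16. It also secretes uromodulin, the most abundant protein of normal urine. The distal convoluted tubule then takes up sodium chloride through NCC, under the control of WNK kinases, and magnesium through TRPM6, which epidermal growth factor stimulates.

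Whole mouse kidneys on a C57BL/6 background were profiled by poly-A, non-directional RNA sequencing, with 3 libraries in each of 14 groups. In the first cohort (Cagg) a ubiquitous, tamoxifen-inducible CaggCreERT2 was activated through the milk of treated mothers in the first days of life, and kidneys were taken at P30 from controls (labelled wild type, described by the study as Cre carriers), Tsc2 KO, Tfeb KO and Tsc2+Tfeb DKO mice. In the second cohort (KSP) control mice were compared with Tsc2 KO, Tfeb KO and DKO mice made with KspCre, which acts in tubular epithelium and not in podocytes, vessels or interstitium, and kidneys were taken at P50 without drug. In the third cohort (KSP drug) controls and KspCre-made Tsc2 KO and DKO mice received vehicle or rapamycin, an inhibitor of mTORC1, at 1 mg/kg, 3 times a week, in 11 intraperitoneal injections that the study began at day 25, and kidneys were taken at P50. Floxed Tsc2 and Tfeb alleles were deleted in the knockout groups, and the labels call the controls of all cohorts wild type. The study describes its KSP and drug-treatment controls as lacking Cre, unlike the Cre-carrying Cagg controls. The study compared these groups to learn what Tsc2 loss does to the kidney and how much of it needs TFEB, a transcription factor downstream of mTORC1.

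Libraries held between 14926050 and 22807605 counted reads, with a median of 17802376. For 4 Cagg libraries the names in the count and FPKM tables disagreed, 2 of them in genotype, and the naming of the FPKM table was followed here. Under those names Tsc2 lay between 9.05 and 10.6 FPKM in the Cagg control and Tfeb KO libraries and between 4.06 and 5.64 in the Tsc2 KO and DKO libraries. In the KspCre cohorts Tsc2 was at 6.86 to 9.88 FPKM in libraries with the gene intact and at 3.54 to 6.5 in Tsc2 KO and DKO libraries. By edgeR, Tsc2 was called higher than in Tsc2 KO vehicle in DKO vehicle (log2 0.58 ± 0.10, adjusted p = 0.000843) and in Tsc2 KO rapamycin (log2 0.49 ± 0.10, adjusted p = 0.00199). In DKO against Tsc2 KO it was not called in the Cagg (log2 0.28, adjusted p = 0.072) or KSP cohort (0.47, 0.166). The part of unequal Tsc2 RNA in the differences of the members was not tested. Tfeb was at 4.57 to 8.02 FPKM in Cagg control, 2.73 to 3.73 in Cagg Tfeb KO and 1.99 to 3.48 in Cagg DKO, and at 5.85 to 6.24, 4.32 to 5.25 and 2.65 to 4.09 in the same groups of the KSP cohort. In Tsc2 KO, with Tfeb not deleted, it was at 6.98 to 8.33 FPKM in the Cagg cohort. In KSP Tsc2 KO it was at 3.96, 6.12 and 3.66 FPKM, which overlapped KSP Tfeb KO and DKO. Tfeb was not called between KSP DKO and Tsc2 KO (edgeR, log2 −0.48, adjusted p = 0.36). By Xist and Y-linked counts the 3 Cagg controls were male, the Cagg Tfeb KO mice female and the other 2 Cagg groups mixed, so sex and genotype are partly tied in that cohort, whereas every KspCre library was female.

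The 9 members that matched the RefSeq promoter table (build GRCm38.p6), all but Cdh16, had 11 transcription starts. The 250 bases before the start are shown for 3 of them: Umod, which went its own way in the comparisons that follow, Egf, which had one of the widest swings, and Slc12a3, the defining transporter of the distal convoluted tubule. Capitals mark motif matches and the sequences run 5′ to 3′ along the gene.
Umod, chr7:119479263-119479512, minus strand: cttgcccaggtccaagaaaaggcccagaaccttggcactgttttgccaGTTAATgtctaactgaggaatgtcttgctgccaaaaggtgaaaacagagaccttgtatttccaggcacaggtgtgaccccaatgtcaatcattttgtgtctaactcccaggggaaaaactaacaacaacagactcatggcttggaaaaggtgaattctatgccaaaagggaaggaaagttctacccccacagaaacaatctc
Egf, chr3:129755323-129755572, minus strand: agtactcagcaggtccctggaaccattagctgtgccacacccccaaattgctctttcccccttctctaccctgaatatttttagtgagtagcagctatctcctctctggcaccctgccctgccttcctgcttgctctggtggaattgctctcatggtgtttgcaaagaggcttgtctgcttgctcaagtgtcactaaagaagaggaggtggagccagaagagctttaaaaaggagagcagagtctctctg
Slc12a3, chr8:94328958-94329207, plus strand: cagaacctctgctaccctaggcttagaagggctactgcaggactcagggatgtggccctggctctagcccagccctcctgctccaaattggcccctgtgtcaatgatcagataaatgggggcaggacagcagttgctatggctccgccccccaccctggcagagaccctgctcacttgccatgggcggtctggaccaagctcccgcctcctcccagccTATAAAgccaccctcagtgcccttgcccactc

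In all 4 short motifs were searched on both strands of these windows, and a match describes the letters only. GTTAAT, the core recognised by HNF1 factors of kidney epithelium, was found in Umod alone, 197 to 202 bases before the start, and is held by 6.43% of the 32851 promoters in the table. TATAAA, the TATA box, was found in Slc12a3 alone, 27 to 32 bases before the start, and is held by 12.4% of promoters. CACGTG, the core of the motif that TFEB reads, is held by 6.02% of promoters and by none of the 11 member promoters. AAGGTCA, read by estrogen-related receptors, is held by 4.08% of promoters and likewise by none of the members.

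The levels of the 10 genes spanned a wide range, as the plot of FPKM by library shows. FPKM scales the read count of a gene to its transcript length and to the depth of the library, so that levels of genes of different length can be set side by side. In Cagg control kidneys the order by mean FPKM was Umod 948 ± 140 (SD, n = 3), Cdh16 445 ± 13.2, Slc12a1 290 ± 29, Egf 165 ± 33, Kcnj1 118 ± 9.02, Slc12a3 103 ± 3.42, Wnk4 63.7 ± 4.12, Pvalb 37.1 ± 0.557, Cldn16 12.9 ± 0.812 and Trpm6 3.74 ± 0.363. No gene of that list had a library within the range of its neighbour in the order, although Kcnj1 (up to 125) and Egf (from 127) were close. In KSP controls Umod was again first at 1123 ± 52.6 and Trpm6 last at 3.52 ± 0.925.

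**Figure D1:**
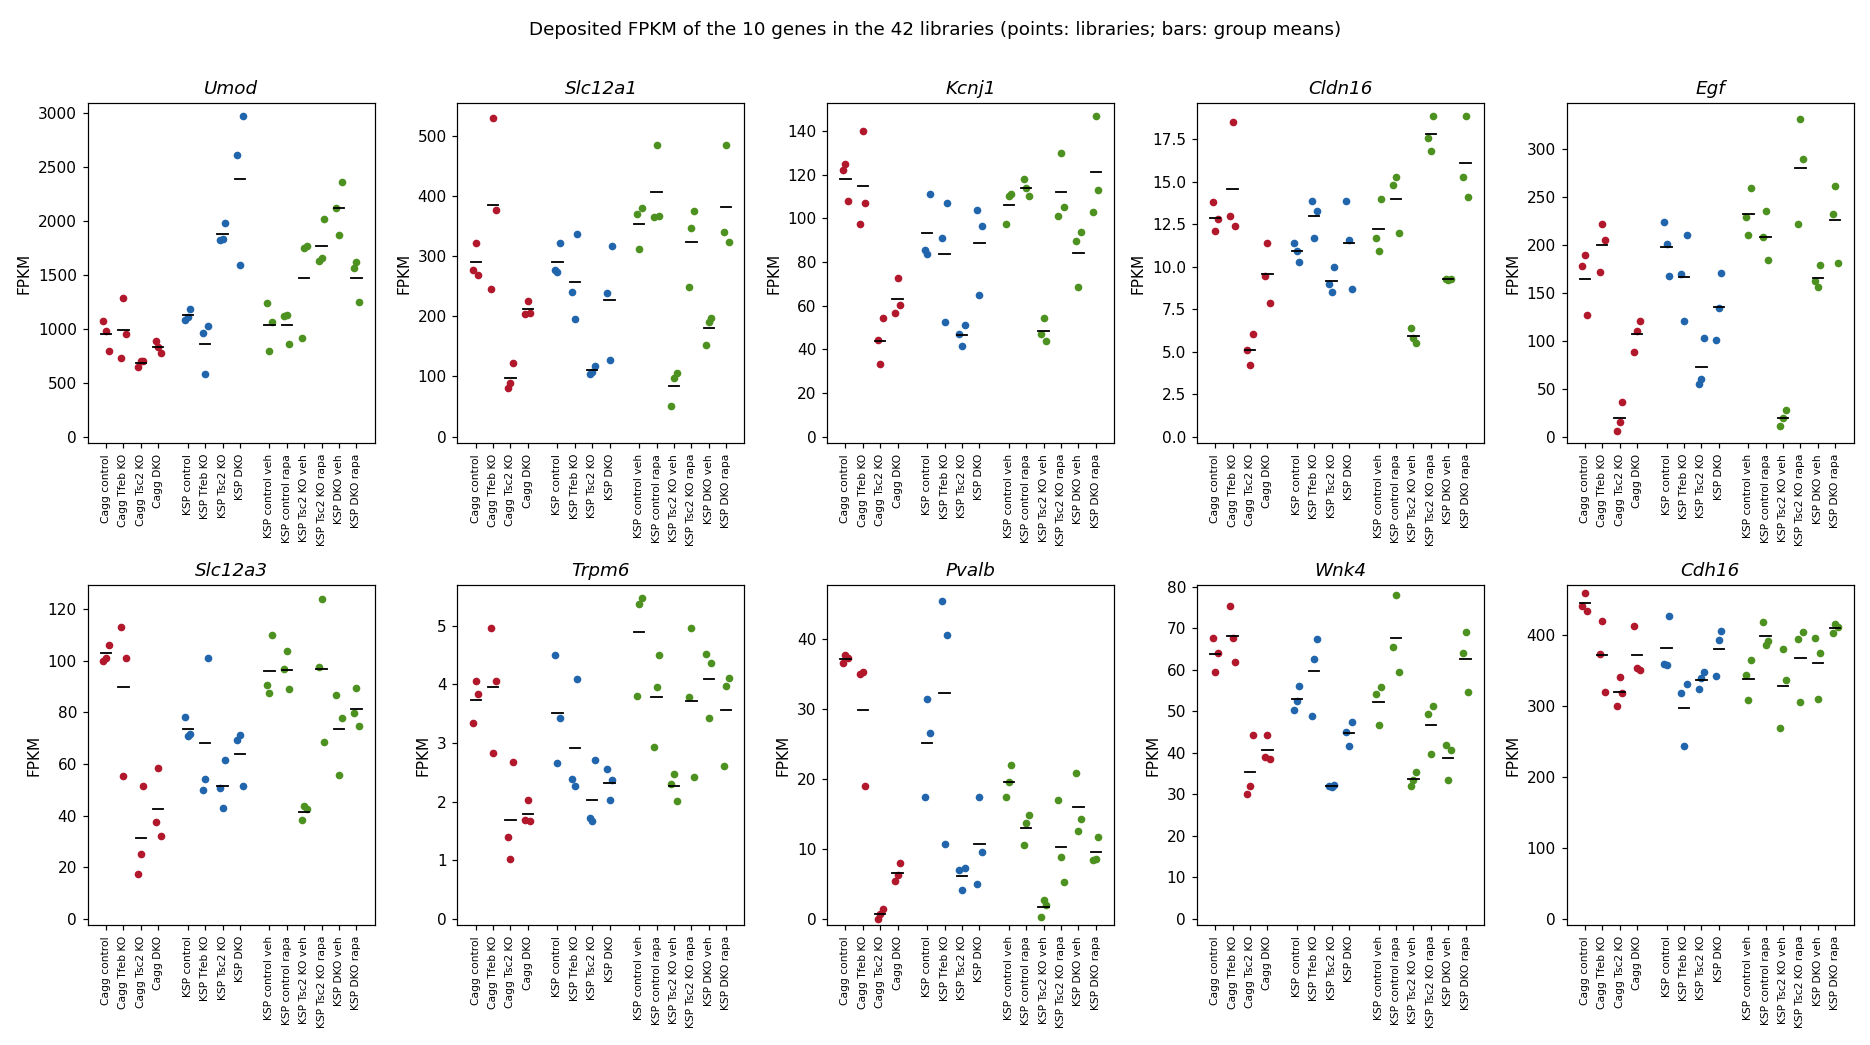
Deposited FPKM (linear axes) of each gene in the 42 libraries, with 1 panel per gene; points are libraries, short bars group means, and colours the Cagg (red), KSP (blue) and KSP drug (green) cohorts. Most panels dip at Tsc2 KO in each cohort, whereas the Umod panel dips in the Cagg cohort and is high in the KspCre Tsc2 KO and DKO groups.

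The quasi-likelihood test of edgeR was run on the counts of all genes in a cohort. A gene was called where its Benjamini-Hochberg adjusted p over all tested genes was at most 0.05 and it reached a mean of 5 FPKM in either of the groups compared, the minimum that the study used. All 10 members passed the filter on low counts, and 9 could pass the FPKM minimum in each comparison. Trpm6 stayed under 5 FPKM in every group mean and could not be called. Pvalb met the minimum in the Cagg and drug cohorts through the groups where it was high. The labels do not tie the 3 libraries of a group to named animals, the study states that its replicates were biological, and p-values measure the spread between these libraries. The libraries are of whole kidney, so fewer cells of a segment and less RNA per cell cannot be told apart.

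Most of these genes fell with loss of Tsc2 throughout the body. In Cagg Tsc2 KO against control 8 of the 10 members were called lower and 0 higher, while 15.5% of the 8090 genes that could pass were called lower and 23% higher. The median log2 fold change was −1.32 over the members and 0.00 over all tested genes. The 2 members not called were Umod and Trpm6. With the library names of the count table the same 8 members were called. Those names differ only in the Tfeb KO and DKO groups, so this says little about the comparison.

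Among the thick limb transporters, Slc12a1 was at 277, 323 and 269 FPKM in the Cagg controls and at 80, 89.5 and 122 in Tsc2 KO. The groups lay far apart, and the fall was 2.86-fold (log2 −1.52 ± 0.24 SE, adjusted p = 0.000554). Kcnj1 stood at 122, 125 and 108 FPKM in controls and at 44.1, 33 and 54.3 in Tsc2 KO, a fall of 2.58-fold (log2 −1.37 ± 0.18, adjusted p = 0.000184). The channel and the cotransporter work together in the apical membrane. Cldn16, of the paracellular magnesium pathway, went from 13.8, 12.1 and 12.8 FPKM to 5.07, 4.2 and 6.04, which is 2.42-fold lower (log2 −1.28 ± 0.20, adjusted p = 0.000605). Umod was at 1073, 975 and 796 FPKM in controls and at 642, 703 and 696 in Tsc2 KO. The ranges did not meet, but the difference (log2 −0.41 ± 0.18, adjusted p = 0.104) did not pass the test.

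Among the distal convoluted tubule genes, Pvalb was at 36.6, 37.7 and 37.2 FPKM in Cagg controls and at 0, 0.658 and 1.36 in Tsc2 KO, from counts of 653 to 768 against 0, 11 and 24 reads. All 3 Tsc2 KO libraries were close to the bottom of the scale, and the fitted change was log2 −5.76 ± 0.55 (adjusted p = 2.2e-05). Egf fell from 178, 190 and 127 FPKM to 5.36, 15.3 and 36.1, which is 8.38-fold (log2 −3.07 ± 0.49, adjusted p = 0.000685). The 3 Tsc2 KO libraries differed widely among themselves for Egf, and replicate 3 was the highest of the group for all members but Umod and Cdh16. Slc12a3 went from 99.8, 101 and 106 FPKM to 17.2, 24.9 and 51.5 (log2 −1.66 ± 0.37, adjusted p = 0.00586). Its kinase Wnk4 went from 67.5, 59.3 and 64.1 to 29.9, 31.9 and 44.3 FPKM (log2 −0.79 ± 0.14, adjusted p = 0.00136). Trpm6 was at 3.34 to 4.05 FPKM in controls and 1.01 to 2.68 in Tsc2 KO (log2 −1.08 ± 0.30), with an adjusted p of 0.0166 but a level under the FPKM minimum.

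Cdh16 was at 440, 459 and 434 FPKM in Cagg controls and at 300, 341 and 318 in Tsc2 KO, a 1.33-fold fall (log2 −0.41 ± 0.12, adjusted p = 0.022). This call was lost when any of the 3 controls or Tsc2 KO replicate 1 was left out (adjusted p from 0.0545 to 0.0811). With Xist as a covariate for sex, 6 members were called, since Cdh16 (adjusted p = 0.191) and Slc12a3 (adjusted p = 0.0597, log2 −1.58) then missed the threshold.

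**Figure D2:**
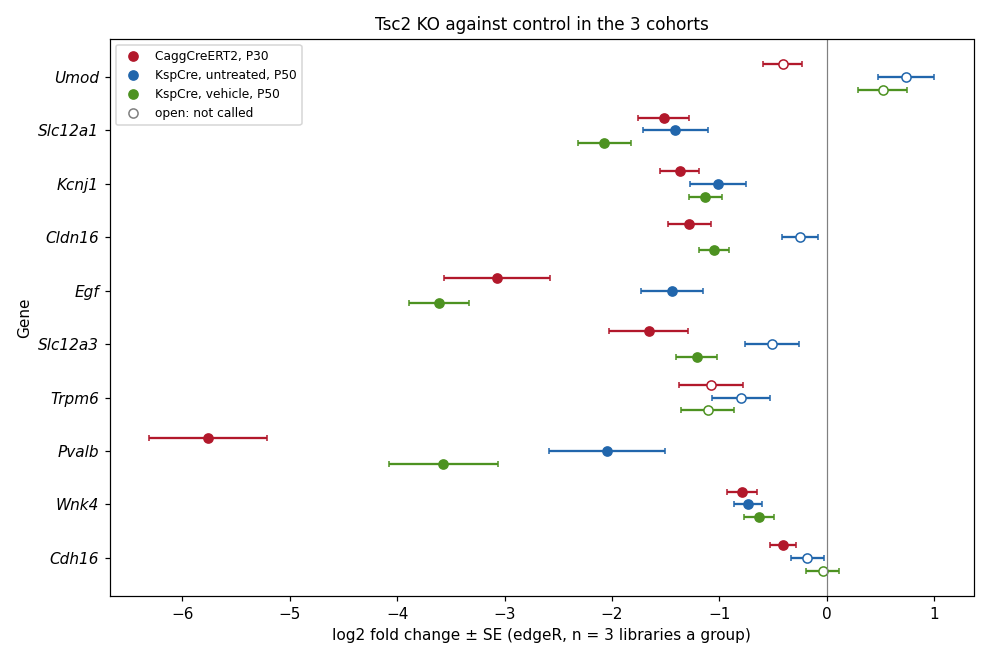
Log2 fold change ± SE of each gene in Tsc2 KO against control in the 3 cohorts (edgeR, 3 libraries a group); filled points were called and open points were not. Umod is left of 0 in the Cagg cohort (−0.41) and right of 0 in both KspCre cohorts (0.74 and 0.52), and Pvalb and Egf reach furthest to the left.

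With Tsc2 removed from tubular epithelium by KspCre, fewer of the genes were called. In KSP Tsc2 KO against control 5 of 10 members were lower and 0 higher, against 8.74% lower and 9.42% higher of the 7736 genes that could pass. The 5 were Slc12a1, Kcnj1, Egf, Pvalb and Wnk4. Slc12a1 was at 277, 274 and 323 FPKM in KSP controls and at 104, 107 and 118 in Tsc2 KO (log2 −1.41 ± 0.30, adjusted p = 0.00888). Egf was at 224, 201 and 168 FPKM against 55.4, 60.3 and 103 (log2 −1.44 ± 0.29, adjusted p = 0.00722). These 2 genes kept clear gaps between the groups. Wnk4 was at 50.2, 52.4 and 56 FPKM against 31.9, 31.8 and 32.3, a narrow spread within both groups (log2 −0.73 ± 0.13, adjusted p = 0.00354). Kcnj1 was at 83.5 to 111 FPKM against 41.5 to 51.1 (log2 −1.01 ± 0.26, adjusted p = 0.0227), and Pvalb at 17.4 to 31.4 against 4.06 to 7.26 (log2 −2.05 ± 0.54, adjusted p = 0.0281). Both calls were fragile: without control replicate 3, Tsc2 KO replicate 1 or Tsc2 KO replicate 2 only 3 members, Slc12a1, Egf and Wnk4, were called, and Pvalb was lost (adjusted p from 0.0646 to 0.102) without any library of the 2 groups but control replicate 1.

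Cldn16 and Slc12a3 were lower in KSP Tsc2 KO on average but did not pass, at 9.17 ± 0.756 against 10.9 ± 0.506 FPKM (adjusted p = 0.402) and 51.6 ± 9.39 against 73.6 ± 4.07 (adjusted p = 0.217). Umod pointed the other way. It was at 1077, 1112 and 1181 FPKM in KSP controls and at 1821, 1830 and 1978 in Tsc2 KO, so that every knockout library lay above every control. The difference of log2 0.74 ± 0.26 had an adjusted p of 0.0804 with edgeR, and 0.0168 with DESeq2. In the Cagg cohort the Umod difference had the opposite sign (log2 −0.41), and the cohorts also differ in Cre, age and sex, which cannot be told apart.

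The vehicle-treated kidneys gave the KspCre comparison in a separate set of libraries. Of the 10 members 7 were lower and 0 higher in KSP Tsc2 KO vehicle against control vehicle, where 24.6% of the 8098 genes that could pass were lower and 23.8% higher. The member median was −1.12 on the log2 scale beside 0.01 for all tested genes. Egf was at 229, 211 and 260 FPKM in control vehicle and at 10.8, 19.3 and 27.2 in Tsc2 KO vehicle, a 12.2-fold fall (log2 −3.61 ± 0.28, adjusted p = 1.1e-07). Pvalb was at 17.4, 19.5 and 22 FPKM against 0.291, 2.71 and 1.9 (log2 −3.57 ± 0.51, adjusted p = 5.16e-05), with only 6, 64 and 39 reads behind the knockout values. Egf and Pvalb, as in the Cagg cohort, had the widest changes of the 10. Slc12a1 was at 371, 312 and 380 FPKM against 50.6, 97.6 and 105 (log2 −2.07 ± 0.25, adjusted p = 1.17e-05). The log2 changes of Kcnj1, Cldn16, Slc12a3 and Wnk4 were −1.13, −1.05, −1.21 and −0.63, at adjusted p between 2.89e-05 and 0.00163. Each of these 4 had all its knockout libraries under all its controls.

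Umod in this cohort was at 1241, 791 and 1066 FPKM in control vehicle and at 910, 1746 and 1767 in Tsc2 KO vehicle, so that replicate 1 of the knockout stayed within the control range and the other 2 lay above it. The test gave log2 0.52 ± 0.23 (adjusted p = 0.0902), and without that replicate log2 0.77 (adjusted p = 0.00697). Cdh16 was at 338 ± 28.9 FPKM in control vehicle and 328 ± 56.9 in Tsc2 KO vehicle (log2 −0.04 ± 0.15, adjusted p = 0.848). Scaling to library totals in place of the main TMM scaling moved the median of all genes by 0.269 on the log2 scale in this comparison, and Umod was then called higher (log2 0.79, adjusted p = 0.008). No called member changed direction under any scaling tried.

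Other genes of these segments were read from lists chosen with earlier results of these data known. Of 12 further thick limb transport genes, 7 were lower and 0 higher in Cagg Tsc2 KO, 4 and 0 in KSP Tsc2 KO, and 5 and 1 in KSP Tsc2 KO vehicle. Of all genes that could pass, 15.5%, 8.74% and 24.6% were called lower and 23%, 9.42% and 23.8% higher in these comparisons. Tmem207, a membrane protein, had log2 changes of −2.87, −2.10 and −3.41 in the 3 comparisons. Ppp1r1a, an inhibitor of protein phosphatase 1, changed by −1.78, −1.11 and −1.37, and Cldn10, the sodium-selective claudin of the thick limb, by −0.85, −1.10 and −1.52. Bsnd, the subunit of the basolateral chloride channels, was lower in the Cagg cohort (−0.99, adjusted p = 0.00844) and at −0.05 and 0.20 in the KspCre cohorts, where it was not called (adjusted p = 0.922 and 0.222).

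Of 13 further distal convoluted tubule genes, 5 were lower and 1 higher in the Cagg cohort, 2 and 1 in KSP, and 6 and 2 in the drug cohort, beside the same shares of all genes. The KSP counts are near those shares. Calb1 (calbindin, the calcium buffer of the distal tubule) fell in all 3 comparisons (log2 −1.72, −2.27 and −3.21; adjusted p = 0.008, 0.0012 and 3.02e-07). Slc8a1, the sodium-calcium exchanger on the blood side of the same cells, had log2 changes of −0.94, −1.68 and −2.10 and was called in the KspCre cohorts (adjusted p = 0.0228 and 0.00191). Trpv5, the calcium channel on the urine side, was called higher in both KspCre cohorts (log2 1.32 and 1.67, adjusted p = 0.00402 and 0.00014), with 0.72 and adjusted p = 0.0583 in the Cagg cohort. Klhl3, which targets WNK kinases for degradation, had −1.61, −0.50 and −1.13 and was called in the Cagg and drug cohorts.

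Of 9 transcription factors of the distal nephron, 8 were called lower in Cagg Tsc2 KO, 5 in KSP Tsc2 KO and 6 in KSP Tsc2 KO vehicle, and 0 higher in each, where 15.5%, 8.74% and 24.6% of all genes that could pass were called lower. Tfap2b, a factor of distal tubule development, changed by log2 −1.13, −0.52 and −0.61 and was called each time. Irx1 changed by −0.68, −1.41 and −1.87, Esrrb by −0.89, −1.40 and −1.36, and Emx1 by −1.56 in the Cagg cohort, with −0.40 and −0.76 elsewhere (adjusted p = 0.12 and 0.0867).

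Marker sets of other cells moved in the same comparisons. The summed FPKM of 8 proximal tubule markers was 1985 to 2216 in Cagg control and 451 to 968 in Cagg Tsc2 KO, 1804 to 2125 and up to 1479 (median 1056) in the KSP cohort, and 1786 to 2090 and 399 to 634 in the vehicle groups. Of these 8, 7, 5 and 6 were called lower. Slc22a6, an organic anion transporter of the proximal tubule, had a log2 change of −4.79 in the Cagg cohort, −2.53 in the KSP cohort and −4.17 with vehicle. The 4 podocyte markers, which lie outside the KspCre lineage, summed to 90.9 to 111 FPKM in KSP control and 30.6 to 41.1 in KSP Tsc2 KO, with 3 of 4 called lower in each cohort. The lower values were therefore not limited to the thick limb and distal convoluted tubule. Of 7 principal cell markers, 6 of them tested, 4, 4 and 2 were called lower, with 1 higher with vehicle. Of 5 intercalated cell markers 1 was lower in the Cagg cohort, 2 were higher in KSP, and 3 were higher and 1 lower with vehicle, among them Foxi1 (log2 1.80 and 2.50 in the KspCre cohorts).

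Markers of injury and of other cell types moved with Tsc2 loss in some cohorts. The 5 tubular injury markers summed to 1351 to 1692 FPKM in Cagg control and 4984 to 7526 in Cagg Tsc2 KO, to 1189 to 1552 and 5729 to 7594 in the KSP cohort, and to 1192 to 1233 and 5086 to 7417 with vehicle. Of them 3, 2 and 2 were called higher in the Cagg, KSP and vehicle comparisons. Spp1 (osteopontin) made up most of that sum, at 6177, 6787 and 6282 FPKM on average in the 3 Tsc2 KO groups. The 7 macrophage markers summed to 88 to 117 FPKM in Cagg control and 129 to 178 in Cagg Tsc2 KO, to 55.7 to 77.9 and 94.7 to 158 in the KSP cohort, and to 43 to 59.5 and 90.1 to 180 with vehicle. Of them 2, 0 and 4 were called higher, and 1 was called lower with vehicle. The 4 proliferation markers overlapped in the Cagg cohort, at 13.6 to 17.9 FPKM in control and 12.9 to 29.4 in Tsc2 KO. They did not overlap in the KSP cohort, at 0.69 to 2.21 and 10.1 to 14.1, or with vehicle, at 0.61 to 1.16 and 6.54 to 20.8. Of them 2, 0 and 1 were called higher, and in the KSP cohort none of the 4 reached the 5 FPKM minimum. The 4 endothelial markers overlapped in the Cagg cohort, at 59.1 to 69.3 FPKM in control and 36.8 to 65 in Tsc2 KO, with none called. They summed to 43 to 63 and 23.6 to 35.7 in the KSP cohort and to 37.3 to 51.1 and 23.4 to 26.2 with vehicle, with 3 and 2 called lower. The 5 fibroblast markers overlapped in the Cagg cohort, at 112 to 210 FPKM in control and 108 to 294 in Tsc2 KO, and with vehicle, at 18.7 to 38.2 and 27.4 to 82.3. In the KSP cohort they summed to 28.8 to 45.3 and 47 to 94, and 0, 0 and 3 were called higher in the Cagg, KSP and vehicle comparisons. Where edgeR called 0 of a list, an unadjusted p under 0.05 was reached by 2 endothelial and 0 fibroblast markers in the Cagg cohort, and by 0 macrophage, 4 proliferation and 2 fibroblast markers in the KSP cohort. Of the genes that could pass the FPKM minimum, 4063 of 8090 had an unadjusted edgeR p under 0.05 in the Cagg cohort and 2568 of 7736 in the KSP cohort. The 4 proliferation markers were under that minimum in the KSP cohort and lie outside this share. No marker of these lists was at 0 in all libraries of a Tsc2 KO or control group. The part of cell composition in the fall of the members was not tested.

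With Tfeb deleted together with Tsc2, some of these genes were higher than with Tsc2 deleted alone. The comparison uses the same Tsc2 KO libraries as the one above, so that opposite signs are partly built in. In Cagg DKO against Tsc2 KO 4 of 10 members were called higher and 0 lower, beside 6.91% higher and 7.56% lower of the 7906 genes that could pass. Egf was at 88.8, 110 and 121 FPKM in Cagg DKO, above every Tsc2 KO library and below every control (log2 2.48 ± 0.48 against Tsc2 KO, adjusted p = 0.00864). Slc12a1 was at 204, 225 and 206 FPKM (log2 1.10 ± 0.23, adjusted p = 0.0127) and Cldn16 at 9.47, 11.4 and 7.88 (log2 0.89 ± 0.20, adjusted p = 0.0173). Pvalb was at 5.31, 6.28 and 7.98 FPKM, far above the 0 to 1.36 of Tsc2 KO and far below the controls (log2 3.29 ± 0.56, adjusted p = 0.00451). Cldn16 was not called without Tsc2 KO replicate 1, Tsc2 KO replicate 2 or DKO replicate 2 (adjusted p from 0.0538 to 0.0789) or with Xist as a covariate (log2 0.82, adjusted p = 0.0568), and Slc12a1 not without Tsc2 KO replicate 1 (log2 0.99, adjusted p = 0.0625), which left 2 members. In a fit of these 2 groups alone only Slc12a1 was called, and with the library names of the count table the same 4 were. Marker sets of other cells moved in this comparison too. The proximal tubule markers summed to 451 to 968 FPKM in Cagg Tsc2 KO and 1278 to 1579 in Cagg DKO (6 of 8 called higher) and the podocyte markers to 40.1 to 61.4 and 91.9 to 98 (3 of 4 called higher). The injury markers overlapped, at 4984 to 7526 and 3893 to 6459 FPKM. Their part in the difference of the members was not tested.

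The distal convoluted tubule transporter did not follow in the Cagg cohort. Slc12a3 was at 37.3, 58.5 and 31.9 FPKM in Cagg DKO, which overlapped the Tsc2 KO range (log2 0.43 ± 0.36, adjusted p = 0.485), and Wnk4 was at 38.9, 44.3 and 38.5 (log2 0.18 ± 0.14, adjusted p = 0.452). Against Cagg control, Cagg DKO had 3 members called lower, Kcnj1 (log2 −0.86 ± 0.18, adjusted p = 0.00903), Pvalb (−2.47 ± 0.43, 0.00355) and Wnk4 (−0.61 ± 0.14, 0.0151), where 4.73% of 7950 genes were called lower. In the same comparison 4 of 5 injury markers were called higher, and 3 of 4 podocyte and 2 of 8 proximal tubule markers lower, and their part was not tested. Slc12a3 was just short of the threshold (log2 −1.23 ± 0.37, adjusted p = 0.0535). With the names of the count table in place of those of the FPKM table this comparison called 0 members, and Wnk4 was lost on leaving out any of 4 libraries, control replicates 1 and 3 and DKO replicates 1 and 3 (adjusted p from 0.0531 to 0.072).

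In the untreated KspCre cohort 0 of 10 members were called between DKO and Tsc2 KO, where 0.286% of 7700 genes were called in either direction. At an unadjusted p under 0.05 the edgeR test had 4 members, all higher, beside 1063 of the 7700 genes that could pass, in either direction. DESeq2 called the same 4, Slc12a1, Kcnj1, Egf and Wnk4, with no share of all genes at hand. Slc12a1 was at 239, 127 and 318 FPKM in KSP DKO, all above the 104 to 118 of Tsc2 KO (log2 1.06 ± 0.29, adjusted p = 0.156). Wnk4 was at 45, 41.5 and 47.4 FPKM against 31.8 to 32.3 (log2 0.48 ± 0.13, adjusted p = 0.138). The replicate numbers of these 2 groups deviated together, and with the replicate number as a block the count was also 0. KSP DKO replicate 1 stood apart in macrophage markers, which summed to 701 FPKM there and to 88 and 63.8 in the other DKO libraries; without it the count was again 0. Against KSP control, KSP DKO had 1 member called, Umod, where 2.33% of 7689 genes were called higher. Umod was at 2610, 1586 and 2971 FPKM in KSP DKO, each above all controls (log2 1.09 ± 0.26, adjusted p = 0.0446). This call was lost on leaving out any library but DKO replicate 2 (adjusted p from 0.0923 to 0.169), and under the block (0.0531). Between KSP control and KSP DKO the injury markers went from 1189 to 1552 FPKM to 2587 to 3293 (1 of 5 called higher). The podocyte markers went from 90.9 to 111 FPKM to 50.2 to 63.8 (2 of 4 called lower), and 2 of 8 proximal tubule markers were called lower. Proliferation markers summed to 0.69 to 2.21 and 5.29 to 10.1 FPKM, without a call. Their part was not tested.

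In KSP DKO vehicle against Tsc2 KO vehicle 6 of 10 members were called higher and 0 lower, beside 16.9% higher and 12.6% lower of 7950 genes, and the same count of 6 was obtained when each library was left out in turn. Egf was at 163, 156 and 179 FPKM in DKO vehicle, an 8.69-fold difference from Tsc2 KO vehicle (log2 3.12 ± 0.27, adjusted p = 1.64e-06). Pvalb was at 20.8, 12.6 and 14.3 FPKM (log2 3.26 ± 0.51, adjusted p = 0.000294), which overlapped the control vehicle range. Slc12a1 was at 153, 191 and 198 FPKM (log2 1.09 ± 0.25, adjusted p = 0.00467), above Tsc2 KO vehicle and well below control vehicle. Kcnj1 (log2 0.79), Cldn16 (0.65) and Slc12a3 (0.82) were the other 3, while Wnk4 was at 41.9, 33.4 and 40.5 FPKM against 32 to 35.4 and was not called (log2 0.20 ± 0.14, adjusted p = 0.319). Trpm6 had log2 0.86 ± 0.25 and an adjusted p of 0.0195 under the FPKM minimum.

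Against control vehicle, DKO vehicle had 2 members called, where 8.42% of 7735 genes were called in either direction. Slc12a1 was lower (log2 −0.98 ± 0.25, adjusted p = 0.0279) and Umod, at 2120, 1872 and 2356 FPKM, was higher by 2.05-fold (log2 1.03 ± 0.23, adjusted p = 0.0164). Neither call was firm: Slc12a1 was lost without control vehicle replicate 1 or 3 or any DKO vehicle library (adjusted p from 0.0532 to 0.0967), and Umod without control vehicle replicate 2 or 3 or DKO vehicle replicate 3 (0.0532 to 0.0776). Umod thus had its highest mean of the cohort in the untreated DKO and in the vehicle DKO kidneys, at 2389 ± 718 and 2116 ± 242 FPKM. Between control vehicle and DKO vehicle the intercalated cell markers went from 113 to 162 FPKM to 207 to 310 (2 of 5 called higher). The injury markers went from 1192 to 1233 FPKM to 1463 to 3303 (1 of 5 called higher). Podocyte markers went from 89.7 to 117 FPKM to 59.1 to 71 without a call, and 2 of 8 proximal tubule markers were called lower. Their part was not tested.

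Most of the genes rose with rapamycin in Tsc2 KO kidneys. In KSP Tsc2 KO rapamycin against Tsc2 KO vehicle 7 of 10 members were called higher and 0 lower, beside 21.2% higher and 17.3% lower of 7997 genes, with a median of 1.22 over the members and −0.02 over all tested genes on the log2 scale. Egf was at 222, 332 and 290 FPKM with rapamycin against 10.8 to 27.2 with vehicle, a 14.8-fold difference (log2 3.88 ± 0.28, adjusted p = 1.69e-07). Slc12a1 was at 249, 347 and 375 FPKM (log2 1.94 ± 0.25, adjusted p = 3.61e-05) and Cldn16 at 17.6, 16.8 and 18.9 (log2 1.59 ± 0.14, adjusted p = 1.15e-06). Cldn16 thus had all its treated knockout libraries above all its control vehicle libraries, which reached 14. Kcnj1 was at 101, 130 and 105 FPKM (log2 1.21 ± 0.15, adjusted p = 2.78e-05) and Slc12a3 at 97.7, 124 and 68.6 (log2 1.22 ± 0.19, adjusted p = 0.000207). Pvalb was at 16.9, 8.86 and 5.18 FPKM, all above the vehicle knockouts (log2 2.64 ± 0.50, adjusted p = 0.000942). Wnk4 was at 49.3, 39.7 and 51.2 FPKM (log2 0.48 ± 0.14, adjusted p = 0.0147) and was lost without Tsc2 KO vehicle replicate 1 (0.0508) or Tsc2 KO rapamycin replicate 3 (0.0627).

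**Figure D3:**
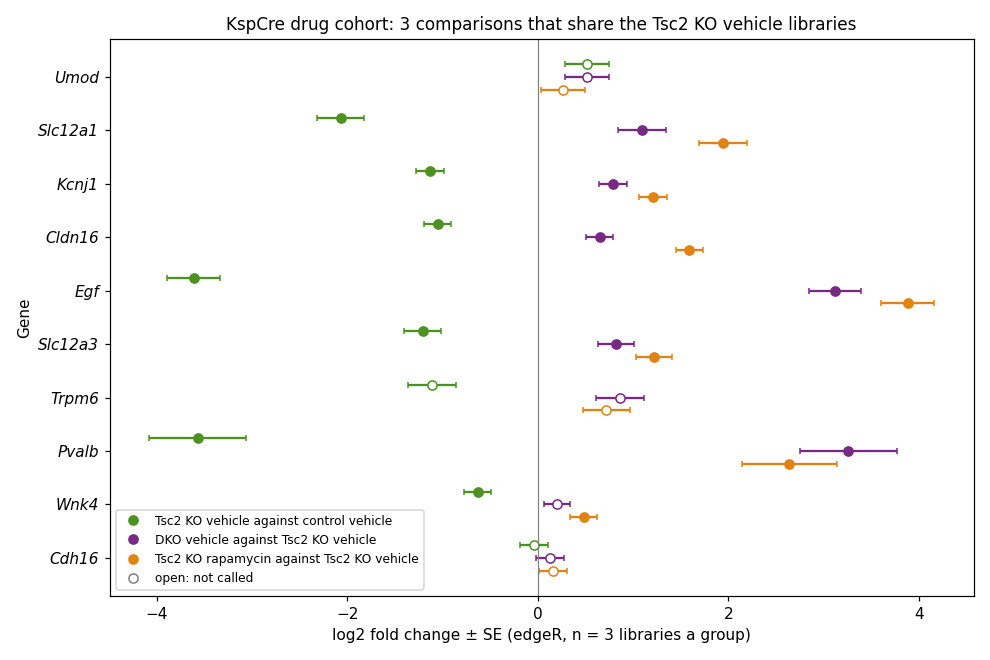
Log2 fold change ± SE of each gene in 3 comparisons of the KSP drug cohort (edgeR, 3 libraries a group; filled points called, open points not), all of which use the Tsc2 KO vehicle libraries. Egf lies at −3.61 in Tsc2 KO vehicle against control vehicle and at 3.12 and 3.88 in the other 2 comparisons, whereas Umod is right of 0 in all 3.

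Marker sets of other cells moved in these comparisons too. The proximal tubule markers summed to 399 to 634 FPKM in Tsc2 KO vehicle, 1061 to 1898 in DKO vehicle and 1654 to 2085 in Tsc2 KO rapamycin, and the injury markers to 5086 to 7417, 1463 to 3303 and 1590 to 2385. The macrophage markers summed to 90.1 to 180, 62.7 to 82.4 and 42.4 to 88.1 FPKM in the same groups. Their part in the difference of the members was not tested.

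These comparisons share the Tsc2 KO vehicle libraries, so that opposite signs between them are partly built in. A comparison without those libraries is that of the 2 rapamycin groups. Between KSP Tsc2 KO rapamycin and control rapamycin 0 members were called by edgeR, where 0.821% of 7555 genes were called in either direction. An unadjusted p under 0.05 was reached by 3 members, beside 1108 of the 7555 genes that could pass. DESeq2 called Umod higher and Wnk4 lower, with no share of all genes at hand. Egf was at 281 ± 55.3 FPKM against 209 ± 25.5 (log2 0.43 ± 0.25, adjusted p = 0.488), Slc12a1 at 324 ± 66.1 against 407 ± 68.9 (log2 −0.33 ± 0.24, adjusted p = 0.589) and Slc12a3 at 96.7 ± 27.6 against 96.6 ± 7.37 (log2 0.00 ± 0.19, adjusted p = 0.996). Umod was at 1626, 1655 and 2020 FPKM against 1120, 1131 and 855, with no overlap (log2 0.77 ± 0.23, adjusted p = 0.168). A p above the threshold does not show that these levels were equal.

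In control kidneys rapamycin left the members uncalled. Of the 10, 0 were called between control rapamycin and control vehicle, where 0.0664% of 7535 genes were called in either direction, and DESeq2 also called 0. An unadjusted p under 0.05 was reached by 1 member, beside 1094 of the 7535 genes that could pass. That member was Wnk4, at 65.5, 77.9 and 59.4 FPKM against 54, 46.7 and 55.9 (log2 0.38 ± 0.14, adjusted p = 0.379). The effect of rapamycin in Tsc2 KO was tested against that in control directly. For 6 members the 2 effects differed, all with the more positive effect in Tsc2 KO, where 17.2% of 8253 genes were called with that sign. In control Egf (log2 −0.15) and Pvalb (−0.59) were lower with rapamycin on average, and neither was called. The differences were log2 4.04 ± 0.37 for Egf (adjusted p = 4.96e-06), 3.23 ± 0.67 for Pvalb (0.00325), 1.74 ± 0.35 for Slc12a1 (0.00255), 1.39 ± 0.20 for Cldn16 (0.00022), 1.21 ± 0.27 for Slc12a3 (0.00527) and 1.11 ± 0.21 for Kcnj1 (0.00205). For Wnk4 the difference was 0.10 ± 0.19 (adjusted p = 0.743) and for Cdh16 −0.07 ± 0.21 (0.836). The same test called 7 of 8 proximal tubule markers (median log2 2.57, beside 1.16 over the members) and 3 of 4 podocyte markers with the positive sign. It called 2 of 5 injury markers with the negative sign, and the part of these markers was not tested.

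Between KSP DKO rapamycin and DKO vehicle 3 members were called higher, where 2.73% of 7723 genes were. Slc12a1 was at 340, 485 and 324 FPKM against 153 to 198 (log2 1.09 ± 0.25, adjusted p = 0.0182), Cldn16 at 15.3, 18.9 and 14.1 against 9.23 to 9.29 (log2 0.80 ± 0.14, adjusted p = 0.00403) and Wnk4 at 64.1, 69 and 54.7 against 33.4 to 41.9 (log2 0.70 ± 0.14, adjusted p = 0.00817). Without DKO rapamycin replicate 2 only Cldn16 was called, and Slc12a1 was also lost without DKO vehicle replicate 1 (adjusted p = 0.0763). Markers of other cells moved as well. The injury markers summed to 1463 to 3303 FPKM with vehicle and 1135 to 1258 with rapamycin (1 of 5 called lower), the intercalated cell markers to 207 to 310 and 165 to 188 (2 of 5 called lower), and the macrophage markers to 62.7 to 82.4 and 34.2 to 51 (2 of 7 called lower and 1 higher). Their part in the difference of the members was not tested. Egf (log2 0.44 ± 0.25, adjusted p = 0.33) and Slc12a3 (log2 0.15 ± 0.19, adjusted p = 0.704) were not called. Umod was at 1558, 1614 and 1251 FPKM with rapamycin against 1872 to 2356 with vehicle, with no overlap (log2 −0.52 ± 0.23, adjusted p = 0.207).

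The effect of rapamycin was smaller in DKO than in Tsc2 KO for 4 members, by log2 3.44 ± 0.36 for Egf, 3.37 ± 0.67 for Pvalb, 1.08 ± 0.27 for Slc12a3 and 0.79 ± 0.20 for Cldn16, as differences of −3.44, −3.37, −1.08 and −0.79 with adjusted p of 0.000108, 0.00716, 0.0247 and 0.024. Of 8254 genes 8.11% were called with that sign. So were 6 of 8 proximal tubule markers (median log2 −1.80, beside −0.82 over the members) and 1 of 5 intercalated cell markers. With the opposite sign 1 of 5 injury and 1 of 4 proliferation markers were called, and the part of these markers was not tested. Egf and Pvalb held in every fit, and Cldn16 and Slc12a3 were both lost on leaving out DKO vehicle replicate 1 or 3 or DKO rapamycin replicate 1 or 3, which left 2 members, and 1 or the other was lost without 5 other libraries.

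Tfeb deletion on its own was followed by no call of a member. Tfeb itself was not called either, in the Cagg cohort (edgeR, log2 −0.80 ± 0.23, adjusted p = 0.394) or in KSP (log2 −0.33 ± 0.20, adjusted p = 0.627). Tests that did not call the deleted gene say little about the members. In Cagg Tfeb KO against control 0 members were called, where 0.0256% of 7803 genes were called in either direction. An unadjusted p under 0.05 was reached by 0 members, beside 607 of the 7803 genes that could pass. In KSP Tfeb KO against control 0 members were called, where 0% of 7476 genes were called. There 1 member (Cdh16) had an unadjusted p under 0.05, beside 841 of the 7476 genes that could pass. DESeq2 called 0 members in both cohorts. Slc12a1 was at 245, 531 and 378 FPKM in Cagg Tfeb KO, a wide spread around the control range, and Pvalb at 45.4, 10.7 and 40.6 in KSP Tfeb KO. Cdh16 was at 318, 243 and 331 FPKM in KSP Tfeb KO against 359, 358 and 427 in control (log2 −0.35 ± 0.15, adjusted p = 0.582). Tests of whether the effect of Tfeb loss differed with and without Tsc2 called 1 member in the Cagg cohort, Pvalb (log2 difference 3.59 ± 0.69, adjusted p = 0.029). There 1.63% of 8341 genes were called with that sign. In KSP 0 members were called, where 0% of 8125 genes were called, and DESeq2 called 0 members. An unadjusted p under 0.05 was reached there by 4 members, beside 929 of the 8125 genes that could pass. The Pvalb call was lost on leaving out any control, Tfeb KO replicate 2 or 3, or DKO replicate 2 or 3 (adjusted p from 0.058 to 0.0838). It was also lost with the names of the count table, which differ in the Tfeb KO and DKO groups (0.0785), with Xist as a covariate (0.244) and under the replicate block (0.0578). The Cagg controls were all male and the Tfeb KO all female, and the part of sex in this difference was not tested beyond that covariate.

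Across the 42 libraries most of the genes rose and fell together. Log2(FPKM + 1) was centred on its mean in each cohort, and Pearson r was taken for the 45 pairs as a description, with no test, since the libraries share genotypes and treatments. The median r was 0.701, with the highest between Slc12a1 and Kcnj1 (0.900) and the lowest between Umod and Wnk4 (−0.231). Per gene the median r with the other 9 was 0.805 for Egf, 0.801 for Kcnj1 and 0.753 for Slc12a3, but 0.436 for Cdh16 and 0.018 for Umod. Umod, though made by the same thick limb cells as Slc12a1, had an r of −0.005 with it.

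**Figure D4:**
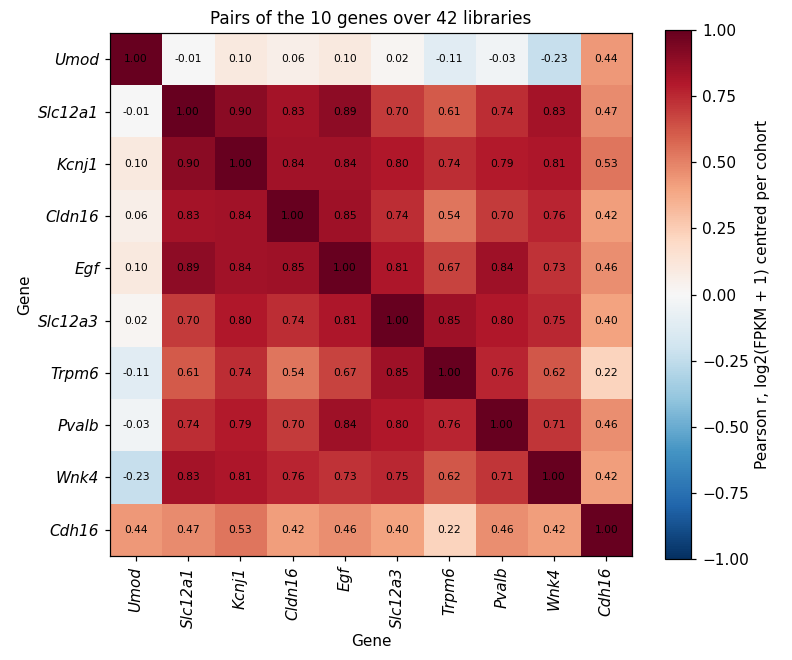
Pearson r of log2(FPKM + 1), centred in each cohort, for each pair of the 10 genes over 42 libraries; red is positive and blue negative. The Umod row is pale, from −0.23 to 0.44, and the block from Slc12a1 to Wnk4 is dark, from 0.54 to 0.90.

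Among 7137 protein-coding genes with a mean of at least 5 FPKM, those with the profile most like that of Slc12a3 were Klhl3 (r = 0.936), Sgms2 (0.906) and Wnk1 (0.899). For Umod they were Ints3 (0.772), Lynx1 (0.748) and Cpq (0.719), and for Cdh16 Aif1l (0.782), Smpd1 (0.779) and Cdkl1 (0.754). The closest genes of Umod and Cdh16 were thus less alike to them than those of Slc12a3 were to it. For Egf the closest were Rdh16f2 (0.958), Nat8f1 (0.955) and Acy3 (0.953), and for Pvalb Slc22a6 (0.918), Papss1 (0.903) and Slc22a8 (0.901). Slc22a6 and Slc22a8 are among the proximal tubule markers, so likeness to the members was not limited to these segments.

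In the deposited tables (mm10) Umod lies at chr7:119462711-119479282, Slc12a1 at chr2:125152505-125230002, Egf at chr3:129677565-129755316 and Wnk4 at chr11:101260567-101277409. Each overlaps at least 1 annotated gene on the opposite strand, whose reads a non-directional library cannot tell apart. The overlapping genes reached 0.0916, 0.655, 11.3 and 2.86 FPKM at most in any library. The gene at 11.3 FPKM, within Egf, is a short miRNA precursor on the same strand. Slc12a3 at chr8:94329201-94366214, Pvalb at chr15:78191114-78206400, Kcnj1 at chr9:32372493-32399197, Cldn16 at chr16:26463135-26482765 and Cdh16 at chr8:104601911-104624396 overlap no other gene in the tables.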

How the data were processed

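Whole-kidney RNA from 42 libraries in 14 groups of 3 was analysed. The deposited counts are whole read numbers per gene, and the deposited FPKM values are those counts scaled to gene length and library depth, both made by the authors; the submitters' processing notes name STAR 2.6.1d, HISAT2 2.0.5, featureCounts 1.5.0-p3, DESeq2 1.20.0 and build mm10, with no role given for each. The deposited log2 fold changes and p-values hold the authors' own comparisons and were not used. Columns were joined between tables by the ratio of FPKM times length to count. Libraries held 14926050 to 22807605 counts.

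Counts were tested with edgeR 4.0.16 (R 4.3.3; filterByExpr, TMM, quasi-likelihood, 1 fit per cohort of all its groups, Benjamini-Hochberg adjustment over all tested genes), with calls at an adjusted p of at most 0.05 and 5 FPKM or more on average in either group. For a difference between effects, the FPKM minimum was applied over the groups of the contrast. Alternatives were DESeq2 1.42.0, RLE scaling, library totals, no filter, no FPKM minimum, the 2 groups alone, a replicate block, each library left out, the count-table names and Xist as a covariate. On simulated data for Tsc2 KO against control, changes of 2 and 1 on the log2 scale were recovered in 76% and 55% of cases in the Cagg cohort (16256 genes, 7.75% of calls false), 70% and 28% in KSP (16537 genes, 4.85%) and 75% and 42.4% in KSP drug (16978 genes, 5.65%). The simulation changed far fewer genes than were called in the data and applied no FPKM minimum. These rates therefore do not carry over to the calls reported here. Named genes were the 10 members, Tsc2 and Tfeb, and the 3 genes most similar in profile to Umod, Egf, Slc12a3, Pvalb and Cdh16. Up to 3 called genes per list and cohort, with the largest change and no overlap, were also named. The members and lists were chosen with earlier results of these data known. Replicate numbers paired the libraries only in KSP DKO against Tsc2 KO, by correlations of deviations of 0.239, 0.246 and 0.189.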

Additional observations from a re-analysis of the deposited data

Results flagged for a closer look

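For several genes the effect of a treatment or deletion differed between genotypes by a direct test (edgeR, log2 differences, n = 3 libraries a group). The rapamycin effect in KSP Tsc2 KO minus that in control was 4.04 for Egf, 3.23 for Pvalb, 1.74 for Slc12a1, 1.39 for Cldn16, 1.21 for Slc12a3 and 1.11 for Kcnj1. The rapamycin effect in DKO minus that in Tsc2 KO was −3.44 for Egf, −3.37 for Pvalb, −1.08 for Slc12a3 and −0.79 for Cldn16. Both sets rest on the same 3 Tsc2 KO vehicle libraries. For Pvalb the effect of Tfeb loss in Cagg kidneys differed with and without Tsc2 by 3.59, a call that was lost with the count-table names, with Xist as a covariate, under the replicate block and on leaving out any of 7 libraries (adjusted p from 0.0578 to 0.244).

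Umod was lower in every Cagg Tsc2 KO library than in every Cagg control (log2 −0.41) and higher in every KSP Tsc2 KO library than in every KSP control (log2 0.74). The difference between the cohorts was not tested, since their tables were normalized separately, and Cre, age and sex cannot be told apart there.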

How the results depend on the processing

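No result changed direction under any alternative. Of the counts of members called, 126 stayed within 1.5 times the reported count in settings that kept all libraries and 13 moved. In the fit of the 2 groups alone the count went from 4 to 1 in Cagg DKO against Tsc2 KO, from 3 to 6 in Cagg DKO against control, from 1 to 0 in KSP DKO against control and from 2 to 1 in DKO vehicle against control vehicle. With the names of the count table it went from 3 to 0 in Cagg DKO against control. DESeq2 called 4 in place of 0 in KSP DKO against Tsc2 KO and 2 in place of 0 in Tsc2 KO rapamycin against control rapamycin. For the Cagg difference between effects, 1 member became 2 with DESeq2 or without the filter, and 0 under the replicate block, the count-table names or Xist as a covariate. The replicate block also took KSP DKO against control from 1 to 0, though these groups share only a number, and it moved no count where the numbers pair the libraries. The cause of these changes was not tested.

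With each library left out in turn the counts ran from 2 to 5 for Cagg DKO against Tsc2 KO, 3 to 5 for KSP Tsc2 KO against control, 0 to 1 for KSP DKO against control, 0 to 1 for DKO vehicle against control vehicle, 1 to 4 for DKO rapamycin against vehicle, 0 to 2 for the Cagg difference between effects and 2 to 5 for the rapamycin effect in DKO minus that in Tsc2 KO. Scaling to library totals shifted the median of all genes by 0.103 and 0.12 in KSP Tsc2 KO and DKO against control, by 0.269, −0.191 and −0.219 in the vehicle Tsc2 KO, vehicle DKO against Tsc2 KO and Tsc2 KO rapamycin comparisons, and by −0.114, −0.272 and 0.207 in the Cagg and both rapamycin differences between effects. Depth limits Pvalb in Tsc2 KO kidneys, with 0 to 64 reads in 6 of those libraries.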
